A study of Mus musculus with 15 samples.

Results

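The mouse genome encodes 6 conventional actins, and the genes were taken by symbol: Acta1, Acta2, Actb, Actc1, Actg1 and Actg2. All 6 were among the 14091 features of the count table. They were followed through an RNA-seq study of ICR mouse embryonic fibroblasts (MEF), cells of connective tissue grown from embryos. The MEF group is labelled MEF alone, and the labels do not say whether it received an empty virus. The MGT group was transduced with a retrovirus for Mef2c, Gata4 and Tbx5, heart transcription factors that, delivered together, turn on cardiac muscle genes in fibroblasts. The MΔGΔT group received MΔGΔT retrovirus instead. What Δ stands for is not defined in the labels. The title of the series names MEF2C and GATA4 as the factors with engineered effector domains. Cells were collected 1 week after transduction, and the transduced libraries carry the title iCM (induced cardiomyocyte-like cells in this field). Each group held 5 libraries. The labels do not say whether these came from separate cultures, so p-values measure the spread between these libraries, which may be technical. Neither the promoter that drove the factors nor the share of cells that took up virus is given in the sources used here.

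Actin monomers polymerise into the thin filaments of muscle and the stress fibres and cortex of other cells. Actb and Actg1 encode the cytoplasmic β- and γ-actins, which every cell type makes. Acta2 and Actg2 encode the smooth muscle actins of vessel and of gut wall, and Acta2 is also the classic mark of the myofibroblast. Actc1 encodes cardiac α-actin, and Acta1 encodes skeletal α-actin, which the developing and stressed heart makes as well. Serum response factor (SRF), with cofactors of the myocardin family, binds CArG boxes and drives many of these genes, while free actin monomer holds the myocardin-related cofactors out of the nucleus.

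The 6 genes are near copies of each other in their coding sequence, which bears on how their reads can be told apart. Identity between coding sequences ran from 81.5% (Acta2 with Actg1, and Actc1 with Actg1) to 88.7% (Actb with Actg1), and Actc1 and Acta1 were identical at 86.2% of bases. The first 45 coding bases show where the isoforms part, since the amino end of the protein is the stretch in which actins differ most. They are given 5′ to 3′ from the GENCODE M21 transcripts (build GRCm38, the same assembly as mm10), and capitals mark bases that differ from Actc1 in the aligned coding sequence.
Actc1 (chr2:114051987-114052031, minus strand): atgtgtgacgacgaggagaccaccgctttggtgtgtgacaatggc
Acta1 (chr8:123893653-123893697, minus strand): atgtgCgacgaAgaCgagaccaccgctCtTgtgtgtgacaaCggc
Acta2 (chr19:34252509-34252553, minus strand): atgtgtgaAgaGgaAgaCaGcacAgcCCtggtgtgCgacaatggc
Actg2 (chr6:83527397-83527441, minus strand): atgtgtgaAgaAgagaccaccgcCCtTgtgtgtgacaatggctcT
Actb (chr5:142905642-142905686, minus strand): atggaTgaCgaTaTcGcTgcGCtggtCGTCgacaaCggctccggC
Actg1 (chr11:120348047-120348091, minus strand): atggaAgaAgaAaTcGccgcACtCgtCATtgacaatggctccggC
Acta1 and Actg2 each differed from Actc1 at 6 of these bases, Acta2 at 9, Actg1 at 12 and Actb at 14. These counts hold substituted bases only. The coding sequence of Actg2 (1131 bases) and those of Actb and Actg1 (1128) are shorter than that of Actc1 (1134). Bases they lack within this stretch are neither marked nor counted, and their lines run further along the gene. In these bases the muscle actins sat closer to cardiac actin than the cytoplasmic actins did. Over the whole coding sequence Acta2 did not, with 82.5% identity to Actc1 beside 82.7% for Actb. Along the whole main transcript, a 50-base window was counted as shared when the same letters occurred in a transcript of another annotated gene. No window of Actc1 or Actg2 was shared. The share was 0.352% in Acta2, 2.22% in Acta1, 14.2% in Actb and 56.7% in Actg1. In Actg1 every coding window (100%) was shared, across 22 other genes, most of them predicted genes, and the noncoding windows were not (0%). In Actb the most windows were shared with Lrrc58 (9.57% of windows) and the predicted gene Gm15725 (6.73%).

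By symbol, 4 of the 6 genes had an entry in the RefSeq promoter table (build GRCm38.p6): Acta1, Acta2, Actc1 and Actg1. Positions below count from the starts of that table, which differ from the outermost GENCODE start of each gene. Because these genes all rose in the data below, by steps of very different size, the 180 bases before each start are shown, with capitals on CArG boxes and CArG-like boxes. A CArG box was searched as CC, 6 bases that are each A or T, and GG. A CArG-like box was allowed 1 G or C among those 6.
Actc1 (chr2:114052876-114053055, minus strand): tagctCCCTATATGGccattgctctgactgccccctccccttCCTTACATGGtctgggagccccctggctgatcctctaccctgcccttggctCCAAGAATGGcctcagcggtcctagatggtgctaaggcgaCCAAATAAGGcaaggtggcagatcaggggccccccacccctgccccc
Acta1 (chr8:123894776-123894955, minus strand): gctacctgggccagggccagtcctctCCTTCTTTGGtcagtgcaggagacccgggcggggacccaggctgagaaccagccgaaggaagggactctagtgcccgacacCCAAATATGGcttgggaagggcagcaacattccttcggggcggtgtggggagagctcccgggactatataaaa
Acta2 (chr19:34255374-34255553, minus strand): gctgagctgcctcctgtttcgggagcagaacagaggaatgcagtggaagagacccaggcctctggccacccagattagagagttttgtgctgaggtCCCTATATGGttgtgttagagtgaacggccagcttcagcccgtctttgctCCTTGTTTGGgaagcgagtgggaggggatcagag
Actg1 (chr11:120348496-120348675, minus strand): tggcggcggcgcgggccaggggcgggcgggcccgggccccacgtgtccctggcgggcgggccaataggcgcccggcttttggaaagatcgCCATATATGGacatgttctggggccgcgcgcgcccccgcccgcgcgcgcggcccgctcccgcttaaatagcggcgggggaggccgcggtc
Acta1 held the CArG box CCAAATATGG at -73 to -64 from its start, Actc1 held CCAAATAAGG at -47 to -38, and Actg1 held CCATATATGG at -90 to -81. Acta2 held no exact box in the window from 250 bases before to 50 after its start, but 2 CArG-like boxes, CCCTATATGG at -84 to -75 and CCTTGTTTGG at -34 to -25. The letters CCCTATATGG recurred in Actc1 at -175 to -166. Of 32851 mouse promoter windows of the same length, 1.63% held a CArG box and 8.5% a CArG-like box, so 3 of these 4 windows carried an uncommon motif. Both strands were searched, and the matches are a description of letters, not of binding. Of letters tied to the delivered factors, no MEF2 site was found in the 4 windows (3.19% of all windows). GATAA was found in Acta2 alone (25.4% of all windows), and GGTGTG, a T-box core, in Acta1 alone (19%). The letters TATAAA stood at -7 to -2 in Acta1 and at 34 to 39 in Actc1 (13.6% of all windows).

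The libraries and their labels are described first. Counts per library summed to 8.21 to 11.1 M (M, mega). The delivered factors checked the labels: Mef2c was at 57.9 to 60.9 counts per mega-count (CPM) in MEF, 533 to 638 in MGT and 591 to 647 in MΔGΔT, and Gata4 and Tbx5 were also far above MEF in every transduced library. The transduced groups overlapped for Mef2c alone. Gata4 lay higher with MΔGΔT virus (187 to 196 CPM) than with MGT virus (138 to 168 CPM). Tbx5 did so as well, at 170 to 181 CPM against 117 to 137 CPM. The part of these factor levels in the actin differences between MΔGΔT and MGT was not tested. Counts from virus and from the genome cannot be told apart. The fibroblast markers (9 of 9 in the table) summed to 50100 to 59300 CPM in MEF, 26500 to 28000 in MGT and 18200 to 20000 in MΔGΔT, most of it from Col1a1, Col1a2 and Col3a1 (24000, 16500 and 12600 CPM in MEF). Of the 9, Thy1 went from 200 to 133 and 300 CPM and so rose in MΔGΔT against both other groups (0.59 and 1.17, edgeR adjusted p = 1.7e-13 and 3e-21), and Pdgfrb was not called in MΔGΔT against MGT (0.03, 0.45). The macrophage markers (7 of 8 in the table, without Itgam, none at 0) summed to 1800 to 2420, 141 to 262 and 189 to 283 CPM. No 2 libraries of a group agreed within sampling noise, with a chi-square per degree of freedom of 1.61 to 7.43, and the 4 pairs with MEF replicate 1 were the 4 highest of the MEF group, at 4.67 to 7.43. The cultures are bulk samples, in which more cells of a type and more RNA per cell cannot be told apart.

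All 6 actin genes rose in MGT against MEF, in MΔGΔT against MEF and in MΔGΔT against MGT, and in none of the 3 comparisons did the CPM of the groups overlap for any of them. The genes were tested with edgeR's quasi-likelihood test, with p adjusted by the Benjamini-Hochberg method over the 13328 features that passed the filter on low counts. Rose and fell are written of genes with an adjusted p under 0.05. All 6 passed the filter, Actc1 and Acta1 only through their counts outside MEF. In the same comparisons 30.9%, 36.2% and 30.4% of all tested features were called higher, 30.3%, 36.1% and 27.8% were called lower, and 45.8%, 58.5% and 45.3% did not overlap. Together the 6 genes held a median of 0.683% of all counts in MEF (0.666% to 0.752%), 0.892% in MGT (0.877% to 0.964%) and 1.37% in MΔGΔT (1.32% to 1.4%). The rise of Actc1 was by far the widest, followed by Acta1, the smooth muscle pair and the cytoplasmic pair.

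**Figure D1:**
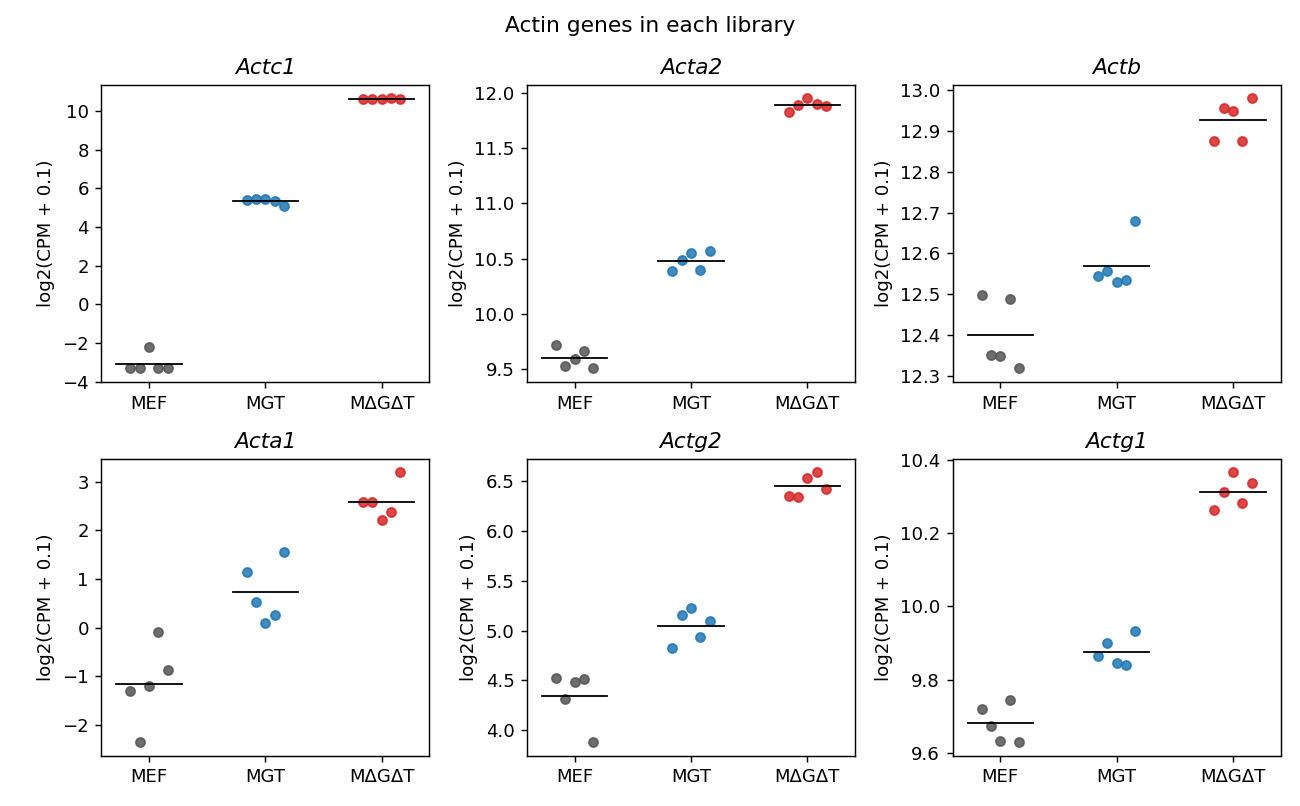
Level of each actin gene in each of the 15 libraries, as log2 of CPM plus 0.1 on the vertical axis, with 1 panel per gene. Points are libraries coloured by group and the line is the group mean (n = 5), and in every panel the 5 MΔGΔT libraries sit above the 5 MGT libraries and these above the 5 MEF libraries.

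Actc1, the cardiac α-actin of the thin filament, went from near silence to the level of an abundant transcript. In MEF 1 count was found over the 5 libraries, in replicate 3 (0.112 CPM), and the other 4 libraries held 0. The deposited RPKM were 0.04, 0, 0.05, 0 and 0.04 in MEF replicates 1 to 5, so replicates 1 and 5 had reads of Actc1 on that measure. In MGT replicates 1 to 5 it stood at 42.1, 43.3, 42.8, 40 and 33.6 CPM. In MΔGΔT replicates 1 to 5 it stood at 1570, 1560, 1570, 1600 and 1580 CPM. MGT replicate 5 was the lowest of its group, and the MΔGΔT libraries were nearly level with each other. The spread in MΔGΔT was 1.01% of the mean, close to the 0.815% that counting alone gives, while in MGT it was 9.93% against 4.74%. With 1 count in MEF the ratio is poorly bounded: 1880-fold for MGT (95% counting interval 338 to 74400) and 73300-fold for MΔGΔT (13200 to 2900000), where the interval covers counting error only. Between the transduced groups the mean went from 40.4 ± 4.01 CPM in MGT to 1580 ± 15.9 in MΔGΔT (SD, n = 5). The log2 fold change was 5.29 ± 0.0491 (SE), and the edgeR adjusted p was 1.6e-42.

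Acta1, the skeletal α-actin, rose at both steps but stayed a rare transcript. Its counts were 3, 1, 3, 7 and 4 in MEF replicates 1 to 5. They were 25, 14, 11, 13 and 28 in MGT, and 53, 58, 44, 50 and 83 in MΔGΔT. The groups did not overlap, and replicate 5 was the highest of both transduced groups. Mean levels were 0.405 ± 0.277 CPM in MEF, 1.68 ± 0.793 in MGT and 6.07 ± 1.75 in MΔGΔT (SD, n = 5). The log2 fold change was 2.06 ± 0.441 for MGT against MEF (SE; edgeR adjusted p = 0.00021), 3.92 ± 0.343 for MΔGΔT against MEF (5.7e-11) and 1.86 ± 0.242 for MΔGΔT against MGT (1.9e-07). The spread between libraries was above counting error in the transduced groups, at 47.2% of the mean against 23.4% from counting in MGT and 28.9% against 13.2% in MΔGΔT. In MEF it was 68.3% against 52.7%, a difference that counts this few do not resolve. Skeletal muscle markers are given beside it: 10 of 16 were in the table, Myog was at 0 in all MEF libraries, Myod1, Myf5, Ckm, Tnni2, Tnnc2 and Myh4 were not among the listed features, and the sum was 24.8 to 31.5 CPM in MEF, 16.5 to 18.6 in MGT and 58.6 to 65.4 in MΔGΔT. Of the 8 skeletal markers tested, 5 rose and 2 fell in MGT against MEF, with a median log2 fold change of 1.54. Among them Myh8 went from 16.1 to 2.87 and 3.17 CPM and Myh1 from 3.55 to 2.84 and 28.3. Myh8 weighed most in the MEF sum and Myh1 in the MΔGΔT sum, while in MGT the largest was Actn3 (3.97 CPM). The cardiac markers (7 of 11 in the table, without Myl2, Myl3, Pln and Nkx2-5) summed to 2.34 to 3.64, 727 to 829 and 2590 to 2730 CPM, and none was at 0 throughout a group. In MΔGΔT against MGT 6 of the 7 rose and 1 fell. The one that fell was Tnni3, from 7.64 to 4.97 CPM (-0.63, edgeR adjusted p = 8.1e-05). The part of other cells in the levels of Acta1 and Actc1 was not tested.

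Acta2, vascular smooth muscle α-actin, was the most counted muscle actin in every library. It stood at 843, 739, 774, 812 and 728 CPM in MEF replicates 1 to 5. In MGT it stood at 1340, 1430, 1500, 1350 and 1520 CPM, and in MΔGΔT at 3630, 3780, 3950, 3800 and 3760 CPM. The highest MEF library lay well under the lowest MGT library, and the same held between MGT and MΔGΔT. Means were 779 ± 48.7, 1430 ± 81.3 and 3790 ± 112 CPM (SD, n = 5), with log2 fold changes of 0.87 ± 0.0387 for MGT against MEF (SE; edgeR adjusted p = 5.7e-20), 2.28 ± 0.04 for MΔGΔT against MEF (6.9e-32) and 1.41 ± 0.0387 for MΔGΔT against MGT (1.5e-25).

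Actg2, the enteric smooth muscle γ-actin, moved by nearly the same steps at a far lower level. Its CPM was 22.9, 19.8, 22.3, 22.7 and 14.6 in MEF replicates 1 to 5. It was 28.3, 35.5, 37.2, 30.5 and 34.2 in MGT, and 81.4, 81.2, 92.6, 96.3 and 85.7 in MΔGΔT. MEF replicate 5 was the lowest library. The log2 fold changes were 0.69 ± 0.103 (SE; edgeR adjusted p = 6.7e-06), 2.10 ± 0.0934 (2.3e-14) and 1.4 ± 0.0843 (8.6e-12) in the order above. The median ratio of Acta2 to Actg2 in reads per kilobase and mega-read (RPKM, the deposited level per gene length) was 32.3 in MEF (30.4 to 43.5), 38.7 in MGT (35.1 to 41.5) and 38.4 in MΔGΔT (34.5 to 40.7). The MEF range reached the others through replicate 5 alone, the library with the lowest Actg2. The other 4 MEF libraries stood at 30.4 to 32.5, below every transduced library, while MGT and MΔGΔT overlapped.

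Markers of smooth muscle cells that are no actins did not all follow this pair. Of 10 listed, 9 were in the table, without Kcnmb1, and their summed level was 361 to 408 CPM in MEF, 751 to 808 in MGT and 1490 to 1580 in MΔGΔT. None was at 0 throughout a group. Myh11, the smooth muscle myosin, rose at each step (13.7, 36.7 and 130 CPM in the 3 groups). Smtn, encoding smoothelin, fell at each step instead, with log2 fold changes of -0.20, -0.36 and -0.17 (edgeR adjusted p = 0.00077, 5.4e-08 and 0.005). Mylk, the myosin light chain kinase, fell in MΔGΔT against MGT (-0.54, 5.2e-13) after a rise in MGT against MEF (1.42, 5.9e-25). Ldb3, a gene of striated muscle as well, went from 1.41 to 135 and 441 CPM, so part of the rise of the sum is not particular to smooth muscle. Of the pericyte markers, 5 of 5 were in the table and summed to 217 to 241, 210 to 228 and 657 to 715 CPM, none at 0. Within them Cspg4 rose in MΔGΔT against MGT (2.08) while Abcc9 (-2.02) and Kcnj8 (-2.35) fell (adjusted p = 7.2e-34, 4.8e-15 and 5.5e-06). The endothelial markers (5 of 6 in the table, without Pecam1, none at 0) summed to 28.3 to 35.3, 34 to 41.6 and 21.2 to 29.2 CPM. The part of these cell types in the smooth muscle actin levels was not tested.

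Actb, cytoplasmic β-actin and a common reference gene, rose by small steps that the replicates resolved. It stood at 5780, 5230, 5210, 5750 and 5110 CPM in MEF replicates 1 to 5. In MGT it stood at 5980, 6030, 5920, 5940 and 6560 CPM, and in MΔGΔT at 7510, 7950, 7910, 7520 and 8080 CPM. The gap between the highest MEF and the lowest MGT library was narrow. The log2 fold changes were 0.17 ± 0.035 for MGT against MEF (SE; edgeR adjusted p = 8.4e-05), 0.53 ± 0.0351 for MΔGΔT against MEF (1.1e-15) and 0.36 ± 0.035 for MΔGΔT against MGT (6.1e-11). The size of the last step depended on the scale: on the deposited RPKM it was 0.10 (limma, adjusted p = 0.34) and that of MGT against MEF 0.19 (0.098), and with counts scaled to the totals that the RPKM values imply it was 0.10 (edgeR, 0.081). On that implied scale the median of all genes moved by -0.24 in MΔGΔT against MEF and by -0.26 in MΔGΔT against MGT. A change of totals moves all genes nearly alike, so the place of Actb relative to the median gene there tests nothing.

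Actg1, cytoplasmic γ-actin, followed Actb. Its CPM was 844, 817, 793, 858 and 792 in MEF replicates 1 to 5. It was 933, 955, 919, 917 and 978 in MGT, and 1230, 1270, 1320, 1240 and 1290 in MΔGΔT. No MEF library reached the lowest MGT library. The log2 fold changes were 0.20 ± 0.0316 (SE; edgeR adjusted p = 1.1e-06), 0.63 ± 0.0317 (1.5e-20) and 0.44 ± 0.0315 (4.2e-15). On the deposited RPKM they were 0.25, 0.44 and 0.20 (limma, adjusted p = 0.0046, 1.1e-05 and 0.017). The median RPKM ratio of Actb to Actg1 was 2.44 in MEF (2.41 to 2.66), 2.38 in MGT (2.34 to 2.5) and 2.23 in MΔGΔT (2.21 to 2.31). The MΔGΔT range lay below the other two. Macrophages make both cytoplasmic actins, and their markers all fell from MEF to either transduced group (7 of 7 called lower). In MΔGΔT against MGT 0 of the 7 were called (the smallest edgeR adjusted p was 0.086, of Lyz2), which does not show equal content. The part of macrophages in the actin levels was not tested in any of the 3 comparisons.

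**Figure D2:**
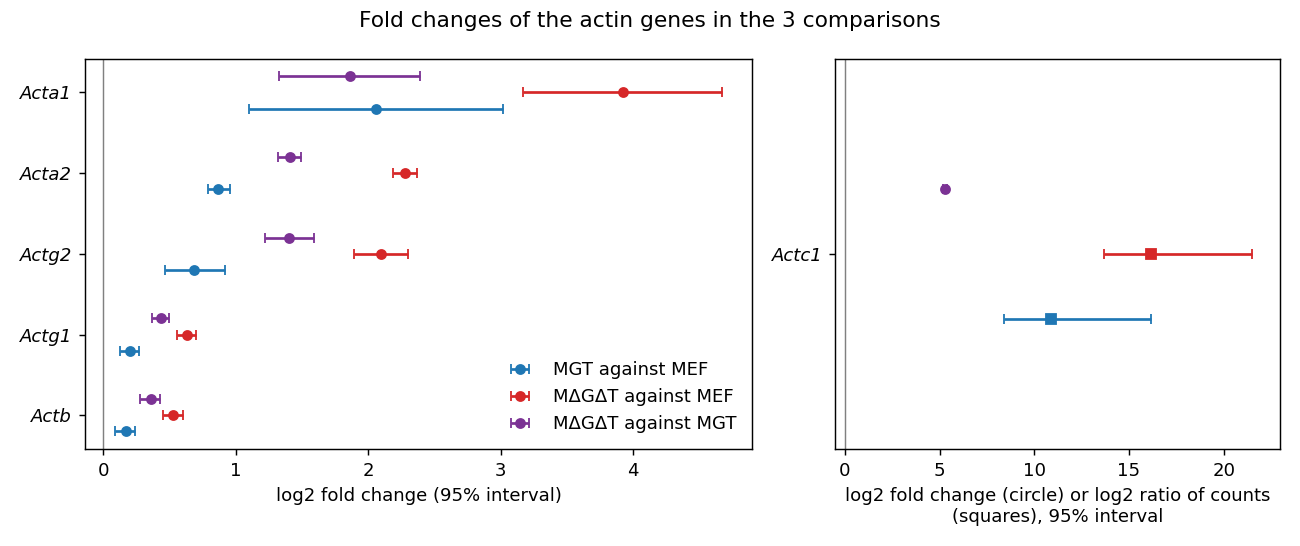
Log2 fold change of each actin gene in the 3 comparisons, with bars for 95% intervals. Circles are edgeR estimates, and squares are ratios of summed counts with counting intervals, used for Actc1 against MEF where 1 count was found. The cytoplasmic pair and the smooth muscle pair each lie together, and Actc1 has an axis of its own.

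Levels of different genes can be compared only per length, for which the deposited RPKM were used. In MEF the order was Actb (1340 ± 113 RPKM), Actg1 (536 ± 32.6), Acta2 (283 ± 23.9), Actg2 (8.52 ± 1.67), Acta1 (0.54 ± 0.105) and Actc1 (0 to 0.05). In MΔGΔT it was Actb (1640 ± 111), Acta2 (1160 ± 59.2), Actc1 (815 ± 17.1), Actg1 (730 ± 40.8), Actg2 (30.7 ± 2.16) and Acta1 (6.39 ± 0.481; all SD, n = 5). Actc1 thus moved from the last place to the third, above Actg1, and Acta2 from the third to the second. In MGT the order was Actb (1520 ± 80.4), Actg1 (636 ± 28.4), Acta2 (524 ± 30.6), Actc1 (25.5 ± 2.92), Actg2 (13.9 ± 1.6) and Acta1 (2.05 ± 0.324). No neighbours in these orders overlapped between libraries within a group. With counts per kilobase of annotated exon in place of RPKM, Acta2 stood above Actg1 in MEF (13.1% against 11.5% of the summed level) and in MGT (19.6% against 10.7%). Actc1 and Actg2 then overlapped in MGT (0.584% to 0.808% and 0.561% to 0.727%).

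The make-up of the actin messenger pool changed from mainly cytoplasmic to mixed. Of the summed RPKM of the 6 genes, which was 2170 ± 167 in MEF, 2730 ± 128 in MGT and 4380 ± 220 in MΔGΔT, the cytoplasmic pair held 86.6% ± 0.3, 79.2% ± 0.786 and 54% ± 0.79 (SD, n = 5). The smooth muscle pair held 13.4% ± 0.3, 19.7% ± 0.776 and 27.3% ± 0.525. The striated pair, almost all of it Actc1, held 0.0261% ± 0.00396, 1.01% ± 0.121 and 18.8% ± 0.683. For none of the 3 classes did the ranges of any 2 groups overlap. Since shares sum to a whole, the falling share of the cytoplasmic actins stands beside their rising counts. Among single genes, Actb went from 61.8% to 55.9% and 37.3%, and Acta2 from 13% to 19.2% and 26.6%. Between the muscle actins, the median RPKM ratio of Actc1 to Acta2 was 0.0492 in MGT (0.0381 to 0.0557) and 0.71 in MΔGΔT (0.657 to 0.737). That of Actc1 to Acta1 was 12.3 in MGT (8.89 to 17.1) and 123 in MΔGΔT (120 to 140). Cardiac actin thus gained on both the smooth muscle and the skeletal isoform between the transduced groups.

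**Figure D3:**
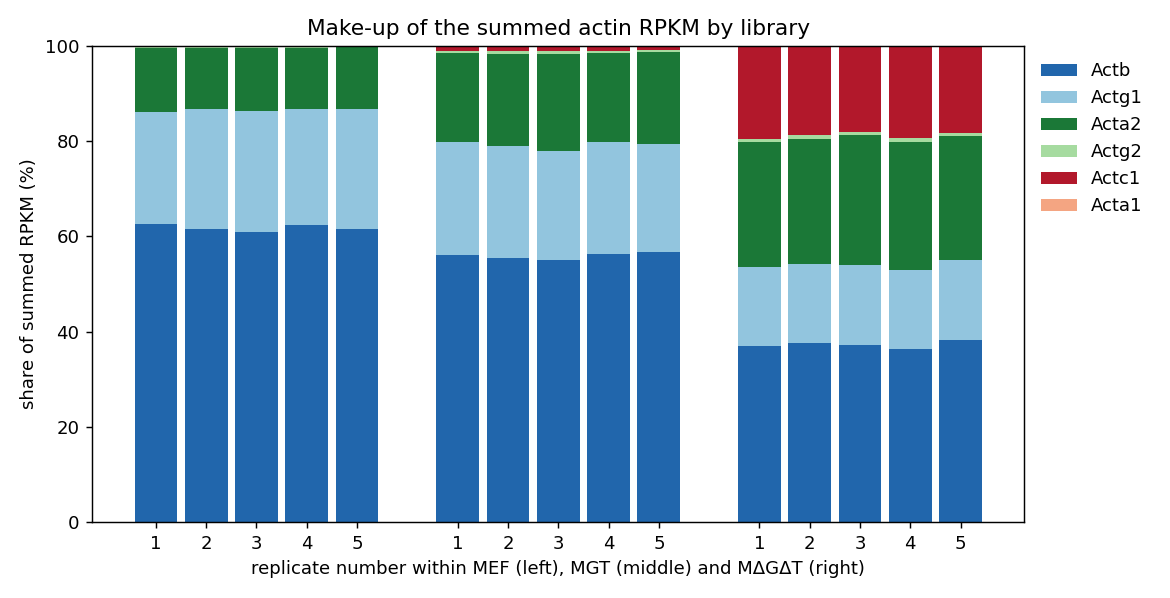
Share of each actin gene in the summed RPKM of the 6 genes, in percent on the vertical axis, as 1 stacked bar for each of the 15 libraries. Actb and Actg1 fill most of the MEF bars, and Actc1 and Acta2 take 18.6% and 26.6% of the MΔGΔT bars on average.

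The deposited counts and RPKM did not hold the same reads for every actin. Each RPKM value was multiplied by the annotated exon length and divided by the count. The result was divided by its median over genes in the same library. If the RPKM were made with another gene length, this ratio would move by the same factor in all libraries. That part was not tested. The ratio was level across all 15 libraries for Acta2 (1.22), Actg2 (0.988 to 0.991) and Actb (1.01 to 1.02). For Actg1 it was 2.6 to 2.79, with medians of 2.64 in MEF, 2.72 in MGT and 2.76 in MΔGΔT. For Actc1 it was 1.47 to 1.59 in the transduced libraries, and for Acta1 it ran from 1.56 to 16.9. Actg1 is also the gene with the largest share of windows found in other genes, while Actc1 shared none and Actb shared more than Acta1. Among 7702 genes with at least 100 counts in every library, 73.2% had a ratio constant within 2%, 20.9% had a median above 1.4 and 5.22% one above 2.5. How reads that match several genes were treated is not given in the sources used here, and its part was not tested. For Acta1 the RPKM were the steadier measure: 0.4 to 0.68 in MEF, 1.53 to 2.38 in MGT and 5.78 to 6.91 in MΔGΔT. The MEF library with 1 count of Acta1, replicate 2, had the highest RPKM of its group. On log2 of RPKM plus 0.5, a scale that understates changes of low genes, Acta1 rose by 1.29, 2.73 and 1.44 and Actc1 by 5.62, 10.60 and 4.98 (limma, all adjusted p at most 3.3e-10).

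**Figure D4:**
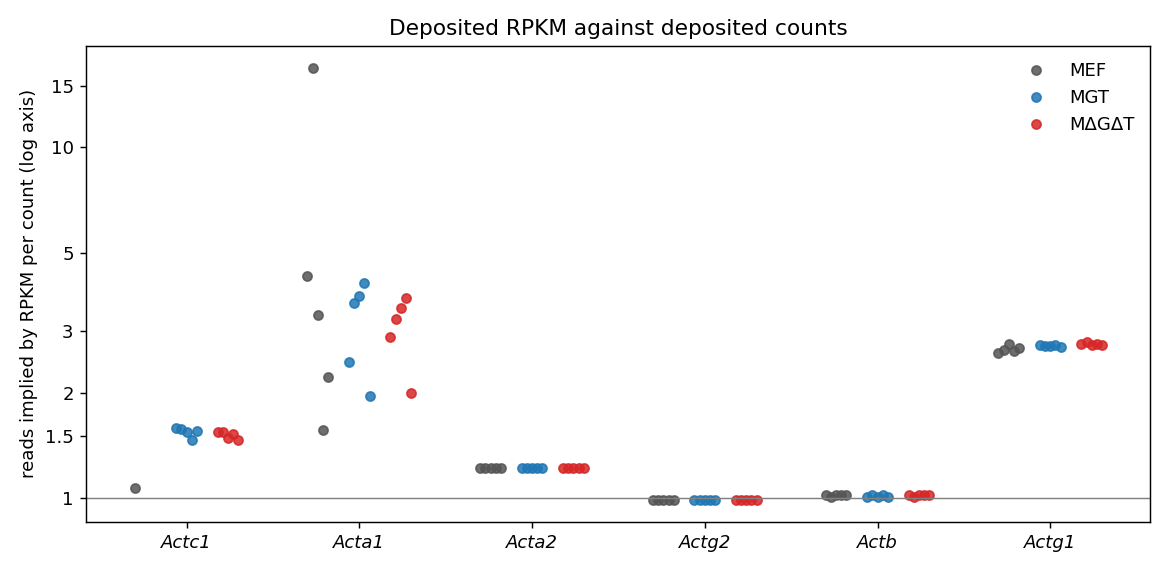
Deposited RPKM times annotated exon length per deposited count (reads implied by RPKM per count) for the 6 actin genes, relative to the median gene of each library. The axis is logarithmic, with 1 point per library coloured by group. Acta2, Actg2 and Actb form tight points, Actg1 lies between 2.6 and 2.79, and Acta1 is spread from 1.56 to 16.9.

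Genes with a profile most like each actin were looked for over the 15 libraries, by the root mean square difference of log2 CPM centred per gene, among 11657 genes. The points share libraries and groups, so the values are a description. Actc1 lay nearest to Ttn, the giant sarcomere protein titin (0.707), then to Myl7 (1.22) and Myh6 (1.25), the atrial light chain and the cardiac α-myosin. Acta2 lay nearest to Pdlim5, a Z-disc and stress fibre protein (0.0737), followed by Slc12a7 (0.101) and Bag2 (0.124). Actg2 lay nearest to Prune2 (0.171), Bag2 (0.18) and Acadl (0.182), and its distance to Acta2 was 0.153. Actg1 lay nearest to Fkbp1a (0.035) and Flii (0.0426), and Actb to Tnfaip1 (0.0457), Nptn (0.0522) and Sec24c (0.0532), with 0.0538 between the pair. Acta1 lay nearest to Nexn (0.474), Slc2a4 (0.481) and Pacsin3 (0.494), and was 0.685 from Acta2 and 3.9 from Actc1. By this measure the pairs of cytoplasmic and of smooth muscle actins were close, and the striated pair was not.

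The wider actin system was read from 6 lists, which overlap. Actr2 and Actr3 are in both the actin-related and the nucleation list, and some genes, such as Myh11, Cnn1 and Actn2, are also cell type markers above. Over all tested features, 30.9%, 36.2% and 30.4% were called higher in MGT against MEF, MΔGΔT against MEF and MΔGΔT against MGT. The shares called lower were 30.3%, 36.1% and 27.8%, and list shares below follow the same order. Of 27 tested SRF cofactor and textbook target genes, 20 rose and 5 fell in MGT against MEF, 22 rose and 5 fell in MΔGΔT against MEF, and 20 rose and 4 fell in MΔGΔT against MGT. Their median log2 fold changes were 0.55, 1.35 and 0.70, beside 0.0039, -0.0058 and 0.0098 over all tested features. As shares, 74.1%, 81.5% and 74.1% were called higher and 18.5%, 18.5% and 14.8% lower. With counts scaled to plain library totals, 3 in place of 5 fell in MGT against MEF. Myocd, the cofactor myocardin, stood at 1.46 ± 0.35 CPM in MEF, 9.73 ± 1.02 in MGT and 75.4 ± 1.27 in MΔGΔT (SD, n = 5), and rose by 2.95 ± 0.0659 in MΔGΔT against MGT (SE; edgeR adjusted p = 1.2e-31). Ankrd1, a stress-responsive muscle gene, went from 3.07 to 82.4 and 405 CPM. Cnn1, encoding the smooth muscle protein calponin, went from 7.65 to 14.8 and 85.2 CPM. Each of these 3 rose at both steps.

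Of 27 tested genes for filament capping, bundling and crosslinking, 17 rose and 5 fell in MGT against MEF. In MΔGΔT 22 rose and 5 fell against MEF, and 20 rose and 4 fell against MGT, with medians of 0.37, 0.87 and 0.40. As shares, 63%, 81.5% and 74.1% were called higher and 18.5%, 18.5% and 14.8% lower. Xirp2, a protein of cardiac intercalated discs, was at 0.0242 CPM in MEF, 1.82 in MGT and 53.7 in MΔGΔT. Actn2, the sarcomeric α-actinin that anchors thin filaments, was at 0.0416, 4.98 and 21.2 CPM. In MΔGΔT against MGT they rose by 4.89 ± 0.131 and 2.08 ± 0.104 (SE; edgeR adjusted p = 2e-24 and 4.8e-20). Tmod1, which caps the slow-growing filament end, rose by 1.46 ± 0.131 (1.8e-12) in that comparison, while in MGT against MEF it was not called (-0.33, 0.062). Pdlim5 went from 174 to 309 and 828 CPM.

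Of 35 tested genes for nucleation and elongation, 18 rose and 14 fell in MGT against MEF, 22 and 8 in MΔGΔT against MEF, and 24 and 7 in MΔGΔT against MGT, with medians of 0.22, 0.41 and 0.24. As shares, 51.4%, 62.9% and 68.6% were called higher and 40%, 22.9% and 20% lower. Lmod2, a leiomodin that lengthens cardiac thin filaments, went from 0.0891 to 4.47 and 40.7 CPM. Enah, which speeds growth at the barbed end, went from 77 to 147 and 664 CPM, and Lmod1 of smooth muscle from 13.5 to 16.5 and 51.5. Was, the nucleation factor of blood cells, fell at each step, from 10.4 to 1.23 and 0.502 CPM, beside the fall of the macrophage markers against MEF. The count of genes called higher in MΔGΔT against MGT rests on the scaling: it was 24 with composition factors, 14 with plain library totals and 12 with RPKM-implied totals. In MΔGΔT against MEF 13 in place of 8 fell with RPKM-implied totals.

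Of 24 tested monomer-binding and turnover genes, 10 rose and 9 fell in MGT against MEF, 16 and 6 in MΔGΔT against MEF, and 17 and 3 in MΔGΔT against MGT (medians -0.05, 0.38 and 0.31). As shares, 41.7%, 66.7% and 70.8% were called higher and 37.5%, 25% and 12.5% lower. With RPKM-implied totals 11 rose and 6 fell in the last comparison, and 10 fell in MΔGΔT against MEF. Dstn, encoding destrin, went from 193 to 373 and 693 CPM and Cfl2, the muscle cofilin, from 54.8 to 109 and 177, and both rose at each step. Tmsb4x, which holds actin monomers in reserve, fell in MGT against MEF (-0.44 ± 0.0722, edgeR adjusted p = 9.4e-05) and rose in MΔGΔT against MEF (0.49 ± 0.0719, 2.8e-05). Abracl rose by 0.67 ± 0.0724 in MΔGΔT against MGT (2.6e-10).

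Of 19 tested genes that fold and modify actin, 11 rose and 1 fell in MGT against MEF (57.9% and 5.26%), and 9 and 3 in MΔGΔT against MEF (47.4% and 15.8%). The medians in the 3 comparisons were 0.19, 0.14 and -0.05. In MΔGΔT against MGT 6 rose and 5 fell, where 31.6% higher and 26.3% lower lie near the 30.4% and 27.8% of all features. In that comparison both scalings named above gave 11 lower. In MΔGΔT against MEF 4 rose and 6 fell with RPKM-implied totals, the opposite balance, and 5 rose with library totals. Cct8, a subunit of the chaperonin that folds new actin, went from 199 to 252 and 401 CPM and rose by 0.67 ± 0.0373 in MΔGΔT against MGT (SE; edgeR adjusted p = 1.2e-18). Setd3, which methylates a histidine of actin, rose by 0.44 ± 0.0469 (1.4e-10), and Pdcl3, a co-chaperone of the chaperonin, by 0.55 ± 0.0687 (1.1e-08). Naa10, an amino-terminal acetyltransferase, fell by 0.76 ± 0.146 (2.5e-05).

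Of 10 tested actin-related genes, which encode relatives of actin that build other complexes, 3 rose and 1 fell in MGT against MEF, and 5 rose and 1 fell in each comparison of MΔGΔT (medians 0.00, 0.14 and 0.13). In MGT against MEF the 30% called higher lies near the 30.9% of all features, and the 10% called lower is below 30.3%. In each comparison of MΔGΔT 50% were called higher and 10% lower. With RPKM-implied totals 2 rose and 2 fell in MΔGΔT against MEF, and 1 rose and 4 fell in MΔGΔT against MGT. With library totals 3 rose in each of these, and with upper-quartile factors 3 rose in MΔGΔT against MEF. The gene called lower became 2 in MGT against MEF without MEF replicate 5, and 0 in MΔGΔT against MEF without MΔGΔT replicate 3. Actr3 and Actr2 are the actin-like subunits of the Arp2/3 complex that starts branches. In MΔGΔT against MGT they rose by 0.40 ± 0.0387 and 0.37 ± 0.0395 (SE, edgeR adjusted p = 1e-11 and 1.8e-10), from 276 to 365 CPM and from 289 to 373 CPM. In the same comparison Actr10 of the dynactin complex rose by 0.31 ± 0.0453 (1.5e-07). Actl6a, a subunit of chromatin remodellers, fell by 0.38 ± 0.0729 (2.5e-05) between these 2 groups. Against MEF, these steps were within 0.41 in size.

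**Figure D5:**
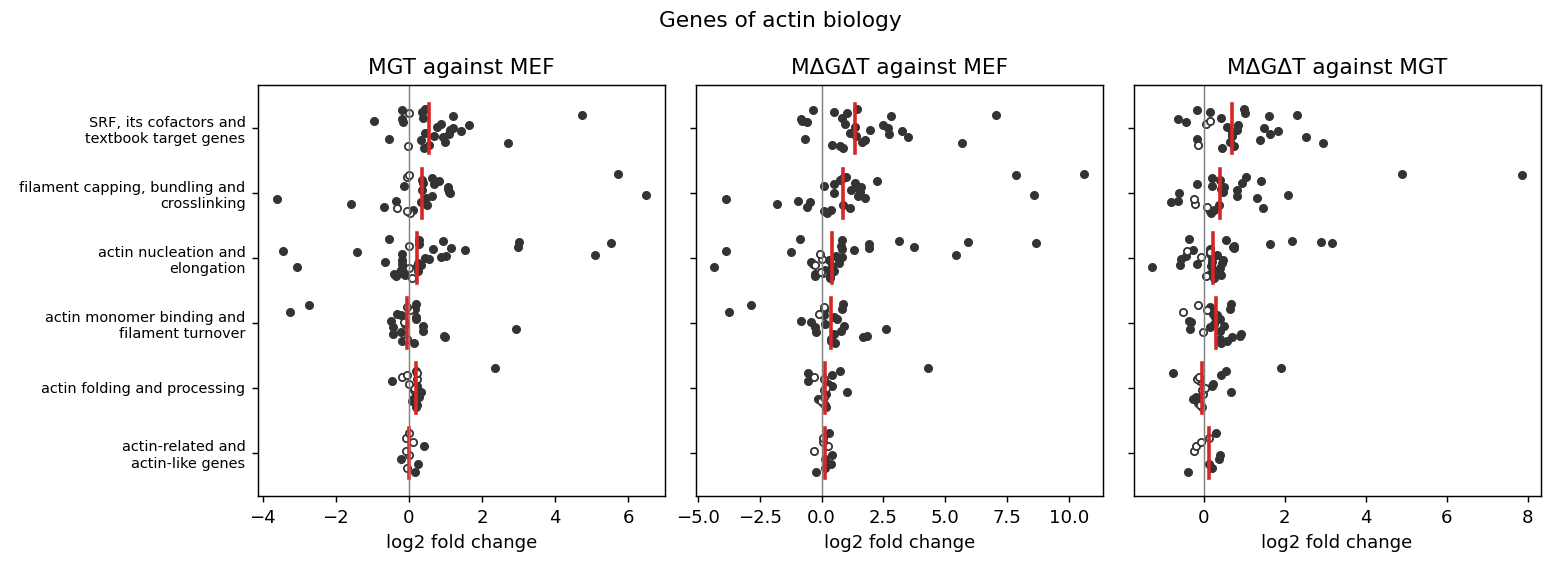
Log2 fold changes of the tested genes of the 6 lists in the 3 comparisons, with 1 point per gene, filled where the adjusted p was under 0.05 and open otherwise, and a red line at the median. The SRF list has the highest medians (0.55, 1.35 and 0.70), and the folding list has the lowest in MΔGΔT against MGT (-0.05).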

How the data were processed

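Directional libraries were made from total RNA after removal of ribosomal RNA, 15 in all, per the labels' protocols. Per the submitters' processing notes, reads were handled on build mm10. The sources used here name no mapper or counter, and do not say how strand or reads that match several genes were treated. The first deposited value of each library was a whole-number count. The normalized signal, per the file headers, was that count times 1 constant per library (within 0.0108%), and the deposited transformed values were its log2 after adding 1 (within 0.005). The deposited RPKM, per the file headers, also carry gene length. RPKM-implied totals are the library totals at which counts and RPKM of most genes match. Features with a date for a symbol (21, with 0.258% of the counts) stayed in library sizes and tests.

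Counts were tested with edgeR 4.0.16 (R 4.3.3; filterByExpr by group, TMM, robust quasi-likelihood fit over all 15 libraries, group as the only term), with Benjamini-Hochberg adjustment over 13328 features, and the fit was tested on simulated data. SE are those implied by the F statistic, CPM use TMM-adjusted library sizes, and intervals of summed-count ratios cover counting error only. Alternatives used DESeq2 1.42.0, limma 3.58.1, other scalings and filters, and each library left out. Named were the 6 actins, the 3 delivered factors, 3 nearest profiles per actin (1 of those of Actg1 is not reported here), up to 4 called genes per list with a mean log2 CPM above 1 and the largest change in MΔGΔT against MGT, and cell type markers. The members and lists were chosen with earlier results of these data known. Transcripts came from GENCODE M21, aligned with Biopython 1.88, and promoters from RefSeq. No genome was used.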

Additional observations from a re-analysis of the deposited data

Results flagged for a closer look

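In 36 sets of 5 libraries (6 genes, CPM and RPKM, 3 groups), 2 actin values stood apart from their group by Dixon's test (critical value 0.71), and chance alone sets apart about 1 in 20 sets. Actb in MGT replicate 5 stood at 6560 CPM, with the next library at 6030 and a gap of 0.826 of the range. Without that library the log2 fold change of Actb was 0.13 in MGT against MEF and 0.39 in MΔGΔT against MGT (edgeR adjusted p = 0.00098 and 4e-12). Actc1 in MEF replicate 3 stood at 0.112 CPM, which is 1 count, beside 0 in the other 4 libraries. Without that library the MEF group holds no count of Actc1. On the deposited RPKM it did not stand apart, with 0.05 beside 0.04 in replicates 1 and 5.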

How the results depend on the processing

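The 18 results of the 6 actins were recomputed under 26 alternatives each, and 465 of 468 values kept their direction and their side of the threshold. The 3 others were of Actb: 0.10 in MΔGΔT against MGT with RPKM-implied totals (adjusted p = 0.081), and 0.19 and 0.10 in MGT against MEF and MΔGΔT against MGT on the deposited RPKM (limma, 0.098 and 0.34), a test chosen after seeing the data. The cause was not tested, and the shift of the median gene given in the report is no test of it. With each library left out in turn, Actb ran from 0.13 to 0.19, 0.50 to 0.55 and 0.35 to 0.39 in the 3 comparisons, and Acta1, with the fewest counts outside MEF, from 1.78 to 2.47, 3.64 to 4.33 and 1.68 to 2.11. The share of called genes that were higher was 50.5%, 50% and 52.3% with TMM, 61.3%, 40.6% and 28.2% with library totals, 53.2%, 29% and 20.5% with RPKM-implied totals, and 53.6%, 29.2% and 20.3% on the deposited RPKM. Of 900 list counts 875 stayed within 1.5 times, and without MEF replicate 1 the turnover genes called lower in MΔGΔT against MGT were 5 in place of 3. With the replicate number as a block, all member calls held (Actb in MGT against MEF 0.17, adjusted p = 0.00033), 0 of 15 same-numbered pairs had deviations correlated above 0.1 (-0.0918 to 0.0668), 4 of 15 libraries correlated best with their own number, and 4078 genes were higher and 4001 lower in MGT against MEF. With counts per kilobase of exon, the shares of Actb were 74.9%, 68.3% and 47.3% in MEF, MGT and MΔGΔT, of Actg1 11.5%, 10.7% and 7.78%, of Actg2 0.486%, 0.641% and 0.914%, and of Acta1 0.00967%, 0.0326% and 0.0643%. Actc1 then held 0.753% in MGT and 15.9% in MΔGΔT, and Acta2 28% in MΔGΔT. Depth limits Actc1 in MEF and Acta1 throughout.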
